A study of Danio rerio with 3 samples.

Results

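The genes described here are 8 members of the Wnt signalling pathway that are expressed in the embryonic zebrafish hindbrain: the secreted ligands wnt1, wnt3a, wnt10b, wnt8b, wnt7bb and wnt11, the Frizzled receptor gene fzd10 and the secreted Frizzled-related protein gene sfrp5. They were taken by gene symbol, and each symbol matched 1 of the 25109 gene rows in every library. The counts come from droplet single-cell RNA sequencing of tissue dissected around the otic vesicle, the epithelial sac that becomes the inner ear, of embryos that the labels give as about 22 h post fertilization (hpf), although the study's methods describe pools of several stages up to that age. The study asked what the homeobox gene shox2 does in inner ear development, and set embryos that lack it beside embryos that carry it. There was 1 library per genotype, made from pooled embryos.

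The shox2Δ/Δ library came from embryos homozygous for a deletion in shox2, which were picked as the GFP-negative offspring of Tg(shox2 Gal4/Δ; UAS:GFP) fish. The shox2Δ/+ library is labelled as heterozygous for the deletion, and the source of its embryos is not given in the sources used here. The wild-type library came from embryos positive for both Tg(neurog1:dsRed) and Tg(neurod1:EGFP), so the genotypes also differ in their transgenes and parents. EGFP reached 3.65 CPM (UMIs of a gene per 1000000 UMIs of the same cells, where a UMI marks 1 captured transcript molecule) in the shox2Δ/Δ library, 260.6 CPM in the shox2Δ/+ library and 253.2 CPM in the wild-type library, and DsRed reached 0.549, 2.21 and 134.6 CPM in the same order. Because each genotype was read once, the genotype cannot be told apart from its library, and no test was made between genotypes.

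Wnt proteins are secreted ligands that bind Frizzled receptors at the cell surface. In the canonical branch of the pathway this binding stabilizes beta-catenin, which enters the nucleus and activates target genes together with TCF/LEF factors, whereas other Wnt proteins act on cell movement and polarity. In the vertebrate hindbrain the roof plate and the rhombic lip, at the dorsal edge of the neural tube, are known sources of Wnt ligands, and secreted Frizzled-related proteins bind Wnt ligands outside the cell and can keep them from their receptors.

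After cells with at least 500 and under 6500 genes and under 5% mitochondrial UMIs were kept, the shox2Δ/Δ, shox2Δ/+ and wild-type libraries held 6672, 8233 and 8548 cells with medians of 17494, 16570 and 19450 UMIs. shox2 itself had 131 UMIs (0.999 CPM), 713 UMIs (4.53 CPM) and 388 UMIs (2.2 CPM) in these cells. Since the kit reads the 3′ end of transcripts and the deleted stretch is toward the 5′ end, these counts check the genotype labels only in part. The library labelled shox2Δ/+ had the highest level, above wild type, which is not the order its label would lead one to look for, and whether transcripts of the deleted copy were counted was not tested. Below, shox2Δ/+ stands for the library with that label, and each direction against it rests on the label. Although the study describes a dissection that avoided the hindbrain, 11787 cells fell into clusters with neural progenitor markers, among them markers of the hindbrain rhombomeres. The study itself also reported rhombomere progenitors among its cells. The wild-type library stood apart from the other 2. In neural progenitor-like cells 19.7% of the genes with at least 20 UMIs differed by 2-fold or more between the shox2Δ/Δ and wild-type libraries, and 18% between the shox2Δ/+ and wild-type libraries, against 2.82% between the shox2Δ/Δ and shox2Δ/+ libraries. Ratios over the shox2Δ/+ library are therefore given beside those over the wild-type library. The libraries also shared cell barcodes, since 551 of the passing shox2Δ/Δ barcodes were among the passing wild-type barcodes (median 1114 UMIs in the shox2Δ/Δ copy and 40976 in the wild-type copy), and 190 were among the shox2Δ/+ barcodes. Leaving out every cell with a shared barcode moved none of the 24 log2 ratios of the 8 genes in neural progenitor-like cells by more than 0.075. In single classes the shared cells weighed more, since 25 of 405 ratios of these genes crossed the 2-fold limit or fell under the minimum count without them, and the largest change was 1.93 (sfrp5 in endothelium-like cells, shox2Δ/+ over wild type).

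Cells were clustered without any Wnt pathway gene among the variable genes. Clusters were named "X-like" from lists of marker genes that held none of the 8 genes. The naming also looked for markers among the 10 genes that led a cluster. For some clusters wnt11, fzd10 or sfrp5 took a place among these 10, and to that extent their levels entered the naming. Of the 8 genes, 6 were found mainly in neural progenitor-like cells, which were 11787 of 23453 cells. Over the 3 libraries these cells held 90.1% of the wnt1 UMIs, 89.3% of wnt3a, 87.8% of wnt10b, 89.7% of wnt8b, 82.6% of wnt7bb and 88.7% of fzd10. For wnt11 and sfrp5 the shares were 44.6% and 51.6%, so that neither was concentrated there (37.2 CPM of wnt11 in neural progenitor-like cells and 40.2 CPM over all cells, and 55.8 and 52.1 CPM of sfrp5). Outside them, the classes with the most wnt11 UMIs were pharyngeal endoderm (12.8%), head mesenchyme (11.1%) and heart and lateral plate (8.14%), and those with the most sfrp5 UMIs were heart and lateral plate (17.6%) and epidermis (12.3%). Intervals below are exact 95% intervals and cover counting error only. In each gene's order of the 34 classes with at least 50 cells, most neighbours in the order could not be told apart. Of the 33 neighbouring pairs, between 29 (fzd10, sfrp5) and 33 (wnt3a) had library values that overlapped.

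**Figure D1:**
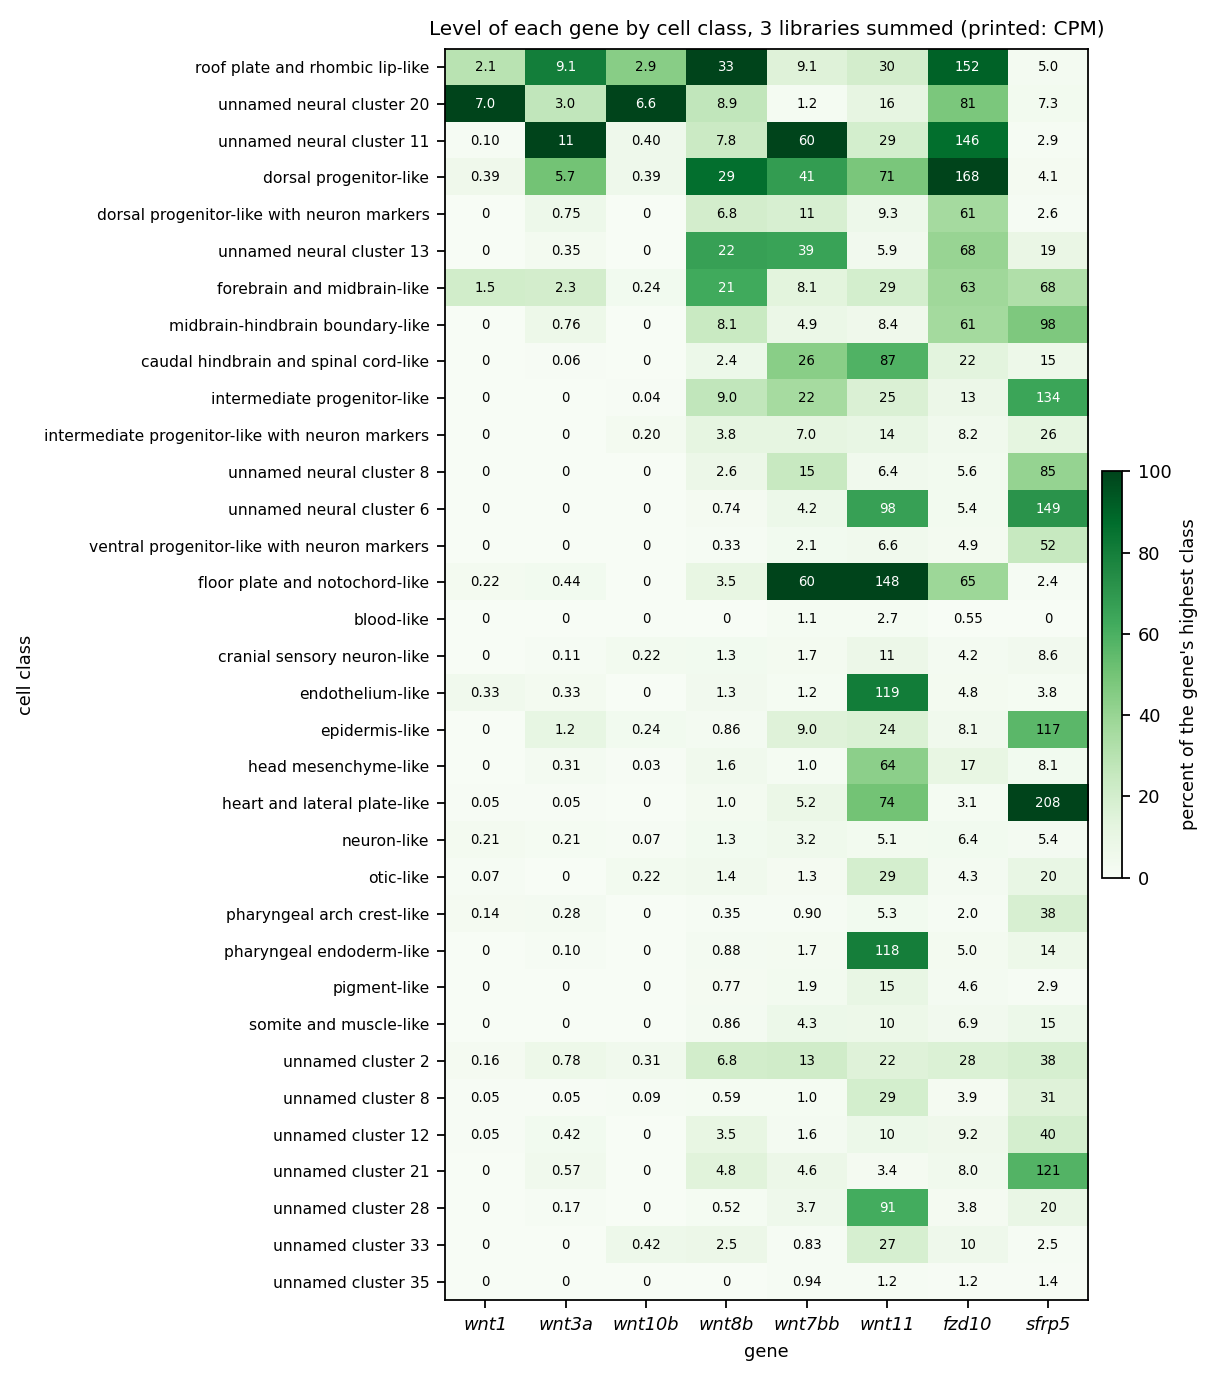
Level of each of the 8 genes (columns) in the 34 cell classes with at least 50 cells (rows), with the UMIs of the 3 libraries summed. The printed numbers are CPM, and the colour gives the percent of the gene's highest class. wnt3a, wnt8b and fzd10 were darkest in roof plate and rhombic lip-like, dorsal progenitor-like and neighbouring unnamed neural classes. wnt1 and wnt10b were darkest in unnamed neural cluster 20, followed by roof plate and rhombic lip-like cells, and were pale in dorsal progenitor-like cells. sfrp5 was darkest in heart and lateral plate-like and in intermediate and unnamed neural classes.

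wnt1 (ENSDARG00000055554) encodes a canonical ligand that is known for its role at the midbrain-hindbrain boundary and the dorsal midline. It was the rarest of the 8 genes, with 131 UMIs in all. Its highest level was in an unnamed neural cluster of 285 cells led by genes such as lhx9, olig4 and scrt1b, at 5.64 CPM in the shox2Δ/Δ library, 14.7 CPM in the shox2Δ/+ library and 2.62 CPM in the wild-type library, from UMI counts of 6, 19 and 5. That cluster had 6 neuron markers raised, beside 4 roof plate and rhombic lip markers and 4 rhombomere 5 and 6 markers. In roof plate and rhombic lip-like cells wnt1 reached 2.89, 1.94 and 1.73 CPM in the shox2Δ/Δ, shox2Δ/+ and wild-type libraries, from 18, 16 and 20 UMIs, and in forebrain and midbrain-like cells 1.86, 1.34 and 1.38 CPM. No wnt1 UMI was found in the 990 midbrain-hindbrain boundary-like cells, with an exact upper bound of 0.215 CPM. This depended on how the cells were chosen, since 378 cells with UMIs of at least 3 boundary markers had 12 wnt1 UMIs (1.39 CPM, 0.720 to 2.44). In 20 of the 34 classes there was none.

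wnt10b (ENSDARG00000040925) encodes another canonical ligand, known in zebrafish to act together with wnt1 at the midbrain-hindbrain boundary. In the RefSeq annotation of the GRCz12tu assembly the gene models of wnt10b and wnt1 overlap each other, so reads of the pair may not be fully separable in these counts. Among the 34 classes wnt10b was led, like wnt1, by the unnamed lhx9 cluster, with 13.2 CPM in the shox2Δ/Δ library, 6.96 CPM in the shox2Δ/+ library and 2.62 CPM in the wild-type library. The roof plate and rhombic lip-like class followed with 4.01, 3.51 and 1.90 CPM in the same order (25, 29 and 22 UMIs). Within that class, a cluster of 159 cells led by sost, rspo3 and gdf6a had 11.25, 5.97 and 4.68 CPM (10, 7 and 5 UMIs). With the libraries summed, wnt10b had 7.03 CPM (4.41 to 10.65) in that cluster and 6.56 CPM (4.36 to 9.48) in the lhx9 cluster, so these 2 could not be told apart. Over the 34 classes the log2 levels of wnt10b and wnt1 had a Pearson correlation of 0.910, a description over classes that share the same 3 libraries. Of the 111 neural progenitor-like cells with a wnt1 UMI, 13 (11.7%, 6.39 to 19.2%) also had one of wnt10b, against 0.874% of the cells without wnt1. Once every cell was thinned to 3000 UMIs, 0 of 20 did, with an interval of up to 16.8% that covers the share without thinning.

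wnt3a (ENSDARG00000058822), a canonical ligand of the dorsal midline, was highest in an unnamed neural cluster led by genes such as cryba1l1, prdx6 and lbx1b, in roof plate and rhombic lip-like cells and in dorsal progenitor-like cells. The unnamed cluster had 6.53 CPM in the shox2Δ/Δ library, 9.38 CPM in the shox2Δ/+ library and 16.5 CPM in the wild-type library, the roof plate and rhombic lip-like class 6.74, 10.1 and 9.69 CPM, and the dorsal progenitor-like class 5.06, 4.86 and 6.77 CPM. Within the roof plate and rhombic lip-like class, a cluster of 159 cells led by sost, rspo3 and gdf6a, called the roof plate cluster here, held 13.5, 28.1 and 20.6 CPM of wnt3a. The atoh1a-led rhombic lip cluster of 500 cells held 10.1, 11.1 and 10.2 CPM. The dorsal progenitor level depended on how the cells were chosen. In 781 cells with UMIs of at least 3 dorsal progenitor markers there were 8 wnt3a UMIs (0.545 CPM, 0.235 to 1.07). Cells so chosen by roof plate and rhombic lip markers had 9.36 CPM. No wnt3a UMI was found in 11 of the 34 classes.

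wnt8b (ENSDARG00000006911), a canonical ligand known from the forebrain and hindbrain, was more abundant and reached further ventrally. It measured 51.8 CPM in the shox2Δ/Δ library, 31.6 CPM in the shox2Δ/+ library and 24.9 CPM in the wild-type library in roof plate and rhombic lip-like cells, and 40.3, 28.9 and 21.3 CPM in dorsal progenitor-like cells. Forebrain and midbrain-like cells had 24.5, 19.2 and 22.1 CPM, and intermediate progenitor-like cells 12.6, 9.53 and 6.78 CPM. Little was found in most clusters with ventral progenitor markers, with 0.330 CPM in the ventral progenitor-like class with neuron markers, 0.739 CPM in an unnamed neural cluster led by phox2bb and nkx2.2b and 2.60 CPM in another led by cyp26c1 and crybb1. The exception was the forebrain and midbrain-like cluster, which also had 5 ventral progenitor markers raised and 21.0 CPM of wnt8b over the libraries. Among the 23 neural clusters the roof plate cluster (57.5 CPM) and a dorsal progenitor-like cluster with the rhombomere 5 and 6 markers egr2a and egr2b (55.9 CPM) were highest, with overlapping library values.

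wnt7bb (ENSDARG00000071107), a zebrafish counterpart of mammalian Wnt7b, was low where wnt1 was high. In roof plate and rhombic lip-like cells it had 10.1 CPM in the shox2Δ/Δ library, 8.11 CPM in the shox2Δ/+ library and 9.17 CPM in the wild-type library, and in the roof plate cluster 10 UMIs in all. Its highest neural level was 59.4, 57.2 and 63.3 CPM in the unnamed cluster led by cryba1l1, and dorsal progenitor-like cells had 40.6, 38.4 and 43.5 CPM. Among the intermediate progenitor-like clusters the level differed with position along the hindbrain. The egr2-led intermediate cluster of rhombomeres 5 and 6 had 30.9 CPM and a caudal intermediate cluster 40.8 CPM, whereas the other intermediate clusters not named for neuron markers had 14.2 and 9.54 CPM. The dorsal progenitor-like clusters had like levels, with 44.1 CPM in the caudal one and 46.2 CPM in that of rhombomeres 5 and 6. Outside the neural progenitor-like classes, floor plate and notochord-like cells had 48.7, 51.4 and 90.3 CPM.

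wnt11 (ENSDARG00000014796, formerly wnt11r) encodes a ligand known mainly for cell movement and polarity, and in zebrafish also from heart, muscle and pharyngeal pouches. Its highest classes lay outside the neural progenitors. Floor plate and notochord-like cells had 148.0 CPM in the shox2Δ/Δ library, 151.9 CPM in the shox2Δ/+ library and 139.8 CPM in the wild-type library, pharyngeal endoderm-like cells 148.6, 125.1 and 87.6 CPM, and endothelium-like cells 79.9, 121.3 and 139.7 CPM. In neural cells most clusters with caudal markers were high. An exception was the dorsal progenitor-like cluster with neuron markers, which had caudal markers raised and 9.25 CPM (7.27 to 11.6) of wnt11. A dorsal progenitor-like cluster with caudal Hox genes had 129.5 CPM, a caudal intermediate one 94.7 CPM and the caudal hindbrain and spinal cord-like cluster 86.9 CPM, against 6.89 to 12.2 CPM in the clusters with rhombomere 4 or rhombomere 5 and 6 markers that were named dorsal or intermediate. The unnamed cluster led by phox2bb and nkx2.2b, which had 4 caudal markers raised, was also high at 98.2 CPM. So was the roof plate cluster, at 116.7 CPM.

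fzd10 (ENSDARG00000068213), a Frizzled receptor gene known from the dorsal neural tube, had the most UMIs of the 8 genes in neural progenitor-like cells (16383). Dorsal progenitor-like cells had 185.9 CPM in the shox2Δ/Δ library, 163.1 CPM in the shox2Δ/+ library and 161.0 CPM in the wild-type library. Roof plate and rhombic lip-like cells had 164.3, 147.7 and 148.8 CPM, and the values of these top classes overlapped. Cells chosen by UMIs of at least 3 markers, with no clustering, were further apart. Those of dorsal progenitor markers had 93.5 CPM (88.6 to 98.5) and those of roof plate and rhombic lip markers 154.5 CPM (150.2 to 158.8). Intermediate progenitor-like cells had 17.2, 13 and 11 CPM, with no overlap with the dorsal classes. The roof plate cluster held the highest level, at 257.7, 241.3 and 376.6 CPM. Outside the neural progenitor-like cells 65.1 CPM was found in floor plate and notochord-like cells, and 4.79 CPM in endothelium-like cells, taken here as cells without fzd10 expression.

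sfrp5 (ENSDARG00000039041), whose product belongs to the secreted Frizzled-related Wnt inhibitors, had the opposite layout to fzd10 between roof plate and rhombic lip-like and intermediate progenitor-like cells. Roof plate and rhombic lip-like cells had 4.49 CPM in the shox2Δ/Δ library, 6.17 CPM in the shox2Δ/+ library and 4.50 CPM in the wild-type library, whereas intermediate progenitor-like cells had 143.1, 170.3 and 105.4 CPM. The unnamed cluster led by phox2bb and nkx2.2b had 125.4, 159.5 and 157.2 CPM. Floor plate and notochord-like cells did not follow this layout, with 2.41 CPM of sfrp5 beside 65.1 CPM of fzd10 over the 3 libraries. This depended on how the cells were chosen. In 447 cells with UMIs of at least 3 floor plate and notochord markers, sfrp5 had 53.8 CPM (48.9 to 59.0) and fzd10 38.8 CPM (34.7 to 43.3). Outside the neural tube sfrp5 was high in heart and lateral plate-like cells, with 204.6, 197.2 and 219.4 CPM, and in epidermis-like cells, with 153.0, 89.2 and 104.2 CPM. When cells were chosen by having UMIs of at least 3 markers, with no clustering, the roof plate and rhombic lip cells had 154.5 CPM of fzd10 and 11.8 CPM of sfrp5, and ventral progenitor cells 4.98 CPM of fzd10 and 181.3 CPM of sfrp5.

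**Figure D2:**
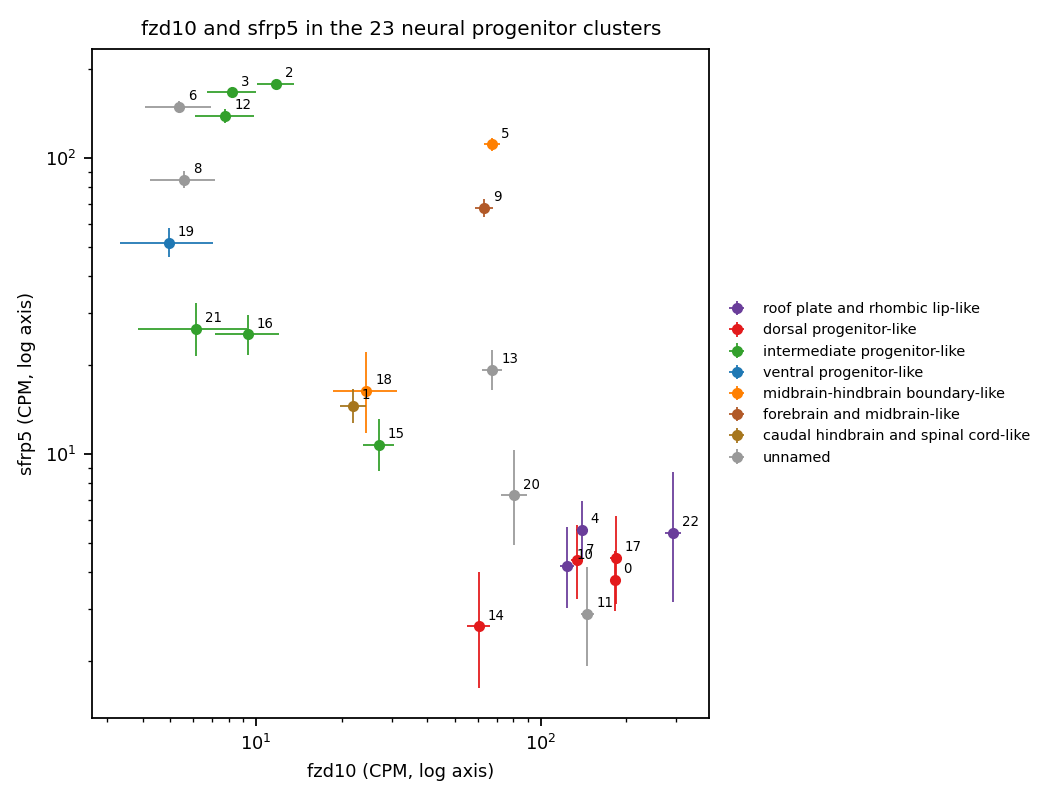
Level of fzd10 (x axis, CPM, log axis) against sfrp5 (y axis, CPM, log axis) in the 23 neural progenitor clusters with the 3 libraries summed, each point 1 numbered cluster and each bar an exact Poisson 95% interval. Roof plate, rhombic lip and dorsal clusters sit at the lower right, and intermediate clusters 2, 3 and 12 at the upper left. A midbrain-hindbrain boundary-like cluster (67.6 CPM of fzd10 and 111.4 CPM of sfrp5) and the forebrain and midbrain-like cluster (63.2 and 68.1 CPM) had both.

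The plot of fzd10 against sfrp5 over clusters shows separate arms rather than a single line. The intermediate clusters 2, 3 and 12 had 178.5, 167.3 and 139.1 CPM of sfrp5 with 11.8, 8.26 and 7.81 CPM of fzd10. The caudal intermediate cluster had little of either, with 10.8 CPM of sfrp5 and 27.0 CPM of fzd10. The midbrain-hindbrain boundary-like cluster had both, but cells chosen by at least 3 boundary markers, with no clustering, had 88.3 CPM of fzd10 and 6.62 CPM of sfrp5, so the sfrp5 level there depended on how the cells were chosen.

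Within cells the shares followed the layout of the clusters. Of 1279 neural progenitor-like cells with an sfrp5 UMI after thinning to 3000 UMIs, 36 (2.82%, 1.98 to 3.88%) had an fzd10 UMI, against 17.9% of the 10385 cells without sfrp5. Within the intermediate progenitor-like class the direction was the same, with 5 of 631 (0.792%, 0.258 to 1.84%) against 4.45%. That class joins clusters with unlike levels of both genes, from 10.8 to 178.5 CPM of sfrp5, and shares within single clusters are not given here. In the roof plate and rhombic lip-like class no direction was shown, with 8 of 18 (44.4%, 21.5 to 69.2%) against 35.6%, which the interval held. Over all neural progenitor-like cells fzd10 was detected more often in cells with wnt3a or wnt8b than in the other cells. Of 84 cells with wnt3a, 38 (45.2%, 34.3 to 56.5%) had fzd10, against 16.1% of the cells without wnt3a, and of 453 cells with wnt8b, 132 (29.1%, 25 to 33.6%) had fzd10, against 15.8% of the others. For wnt10b the count was 1 of 16 (6.25%, 0.158 to 30.2%) against 16.3%, which is too few cells to show a direction. Within the roof plate and rhombic lip-like class the shares were closer, with 46.2% (30.1 to 62.8%) for wnt3a against 35.4%, and 40.3% (31.5 to 49.7%) for wnt8b against 35.3%, and both intervals held the share of the other cells. Without thinning, over all neural progenitor-like cells, fzd10 was found in 18.5% of the cells with sfrp5 against 52.3% of those without. For wnt3a these shares were 94.5% and 41.1%, and for wnt8b 73.1% and 37.5%.

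For each gene, the genes outside the Wnt list whose log2(CPM + 1) over the 34 classes was most like it were found among 14560 genes, as a description over classes of the same 3 libraries. fzd10 was most like zic5 (Pearson r 0.931), zic1 (0.883) and olig3 (0.882), and wnt8b most like zic5 (0.862), mdka (0.816) and zic4 (0.811). wnt3a was most like olig3 (0.850), zic5 (0.834) and zic6 (0.808). The zic genes encode zinc-finger factors of the dorsal neural tube and olig3 a basic helix-loop-helix factor of dorsal progenitors. wnt1 was most like si:ch211-62a1.4 (0.817), scrt1b (0.791) and atoh1a (0.738), and wnt10b like the same genes (0.854 for si:ch211-62a1.4, 0.799 for atoh1a and 0.771 for scrt1b). atoh1a is the basic helix-loop-helix factor of the rhombic lip.

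For each of the remaining genes the closest partner was weaker than the closest partner of any gene above. wnt7bb was most like plekhg7 (0.777), trabd2a (0.763) and poln (0.760), wnt11 like cgnl1 (0.722), mgst3b (0.690) and itm2ba (0.685), and sfrp5 like shisa3 (0.693), crip3 (0.664) and hhip (0.654), the gene of a Hedgehog-binding protein. Among the 8 genes themselves, fzd10 was most like wnt8b (0.891) and wnt3a (0.781), and fzd10 and sfrp5 had a correlation of -0.12.

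The genotypes were compared next. Over all cells 1 of the 8 genes, wnt10b, was past 2-fold between the shox2Δ/Δ and wild-type libraries, where 19.7% of all tested genes were. None was between the shox2Δ/Δ and shox2Δ/+ libraries (3.48% of all genes) or between the shox2Δ/+ and wild-type libraries (17%). In neural progenitor-like cells the counts were 1 of 8 for shox2Δ/Δ over wild type, against 19.7% of all genes, 0 of 8 for shox2Δ/Δ over shox2Δ/+, against 2.82%, and 2 of 8 for shox2Δ/+ over wild type, against 18%. The median log2 ratio between the shox2Δ/Δ and wild-type neural cells, over genes with a minimum count in each library, was itself shifted by 0.11. Values relative to this shift are called median-scaled.

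**Figure D3:**
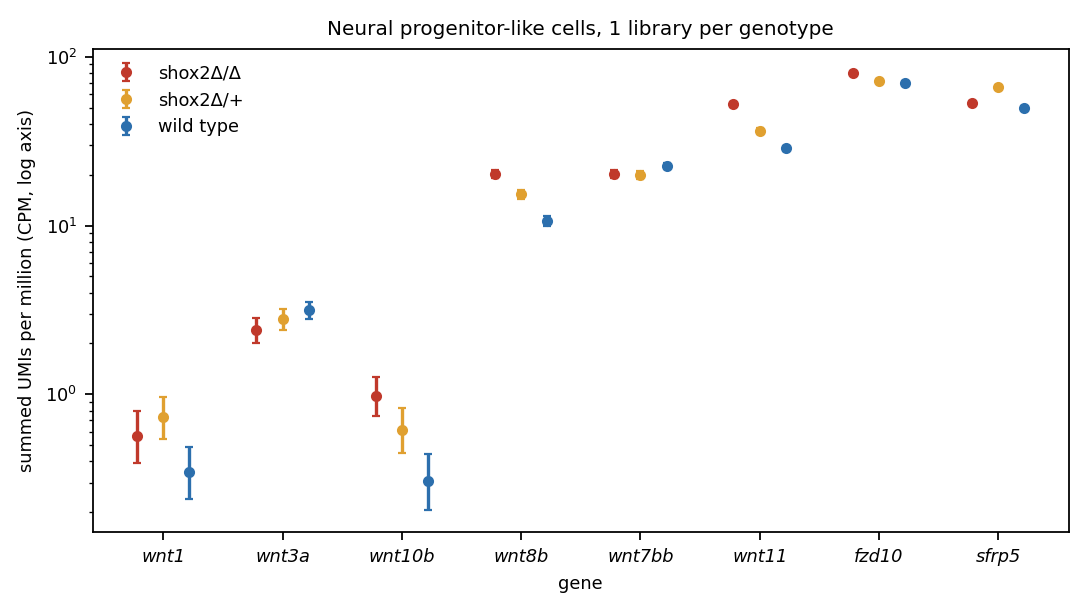
Level of each gene (x axis) in neural progenitor-like cells of the shox2Δ/Δ, shox2Δ/+ and wild-type libraries (y axis, CPM, log axis), each point 1 library and each bar an exact Poisson 95% interval. wnt10b, wnt8b and wnt11 run downwards from the shox2Δ/Δ to the wild-type library, with 20.3, 15.3 and 10.6 CPM for wnt8b, while the points of wnt7bb lie between 19.9 and 22.6 CPM.

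The largest ratio was that of wnt10b. It had 57 UMIs (0.976 CPM) in shox2Δ/Δ, 44 UMIs (0.618 CPM) in shox2Δ/+ and 29 UMIs (0.307 CPM) in wild-type neural progenitor-like cells, a log2 ratio of shox2Δ/Δ over wild type of 1.67 (1.00 to 2.37) and of shox2Δ/Δ over shox2Δ/+ of 0.66 (0.07 to 1.26). wnt1, its neighbour, had 33 UMIs (0.565 CPM), 52 UMIs (0.730 CPM) and 33 UMIs (0.349 CPM). Its log2 ratio was 1.07 (0.41 to 1.74) for shox2Δ/+ over wild type, 0.70 (-0.04 to 1.44) for shox2Δ/Δ over wild type, and -0.37 (-1.04 to 0.29) for shox2Δ/Δ over shox2Δ/+, so the direction for shox2Δ/Δ turned with the library it was set against, and both intervals held 0.

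wnt8b and wnt11 were higher in shox2Δ/Δ neural cells than in both other libraries, by less than 2-fold. wnt8b had 20.3 CPM in shox2Δ/Δ, 15.3 CPM in shox2Δ/+ and 10.6 CPM in wild-type cells, with a log2 ratio of 0.93 (0.81 to 1.05, median-scaled 0.82) over wild type and 0.41 (0.29 to 0.53) over shox2Δ/+. wnt11 had 52.3, 36.3 and 28.6 CPM in the same order, with log2 ratios of 0.87 (0.79 to 0.95, median-scaled 0.76) and 0.53 (0.45 to 0.60). The share of cells with a UMI had the same order. After thinning, 5.64%, 3.88% and 2.78% of the shox2Δ/Δ, shox2Δ/+ and wild-type neural cells had wnt8b, and 11.2%, 8.89% and 6.66% had wnt11 (21.5%, 16.8% and 13.3%, and 33%, 25.8% and 21.8%, without thinning). These cells had median depths of 17781, 15856 and 19067 UMIs. Endothelium-like cells, with median depths of 8591, 17629 and 17890 UMIs, had wnt8b in 0 of 81, 0 of 89 and 1 of 130 thinned cells, where a count of 0 cells with a UMI, read as under 3 cells, allows shares of up to 3.70% and 3.37%.

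The other genes stayed closer together. wnt3a, with 2.40, 2.78 and 3.16 CPM in shox2Δ/Δ, shox2Δ/+ and wild-type cells, was lower in shox2Δ/Δ cells by a log2 ratio of -0.40 (-0.70 to -0.10) against wild type, and by -0.21 (-0.54 to 0.11) against shox2Δ/+. fzd10 had 80.5, 71.4 and 69.8 CPM, a log2 ratio of 0.21 (0.15 to 0.26, median-scaled 0.09) over wild type and of 0.17 (0.12 to 0.23) over shox2Δ/+, and 17.3%, 16.2% and 15.8% of the thinned cells had a UMI of it, against 1.24%, 1.12% and 0.769% of endothelium-like cells. sfrp5 was highest in shox2Δ/+ cells, with 52.8, 66.3 and 49.8 CPM. For shox2Δ/Δ over wild type its log2 ratio was 0.09 (0.02 to 0.15) and changed sign when median-scaled (-0.03), and over shox2Δ/+ it was -0.33 (-0.39 to -0.26). It was highest in shox2Δ/+ in 13 of the 22 neural clusters with at least 20 UMIs. Forebrain and midbrain-like cells, in which sfrp5 had 89.5 CPM in shox2Δ/+, made up 3.78%, 7.13% and 2.47% of the neural cells of the 3 libraries, and their part in the result was not tested. wnt7bb had 20.2, 19.9 and 22.6 CPM, with log2 ratios of -0.16 (-0.26 to -0.06) over wild type and 0.02 (-0.09 to 0.13) over shox2Δ/+.

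The order of the libraries was then followed across the neural clusters with at least 20 UMIs of a gene. For wnt11 the level was highest in shox2Δ/Δ, intermediate in shox2Δ/+ and lowest in wild-type cells in 16 of 23 clusters, and for wnt8b in 13 of 19. fzd10 had this order in 9 of 23 clusters, wnt7bb in 4 of 19, sfrp5 in 2 of 22 and wnt3a in 1 of 8. wnt11 was higher in shox2Δ/Δ than in wild-type cells in 22 of 23 clusters, with an interval above 1-fold in 16, and higher than in shox2Δ/+ cells in 19 of 23, with 11 such intervals. wnt8b was higher than in wild type in 16 of 17 clusters (12 intervals above 1-fold) and higher than in shox2Δ/+ in 14 of 17 (8 intervals). Clusters of a library are not replicates of a genotype, and all of them come from the same 3 libraries. The share of all genes with such orders or intervals is not given here, so these counts do not show that the genes stand out. The ratios within clusters were not median-scaled. For shox2Δ/Δ over wild type the median shift in neural progenitor-like cells was 0.11.

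**Figure D4:**
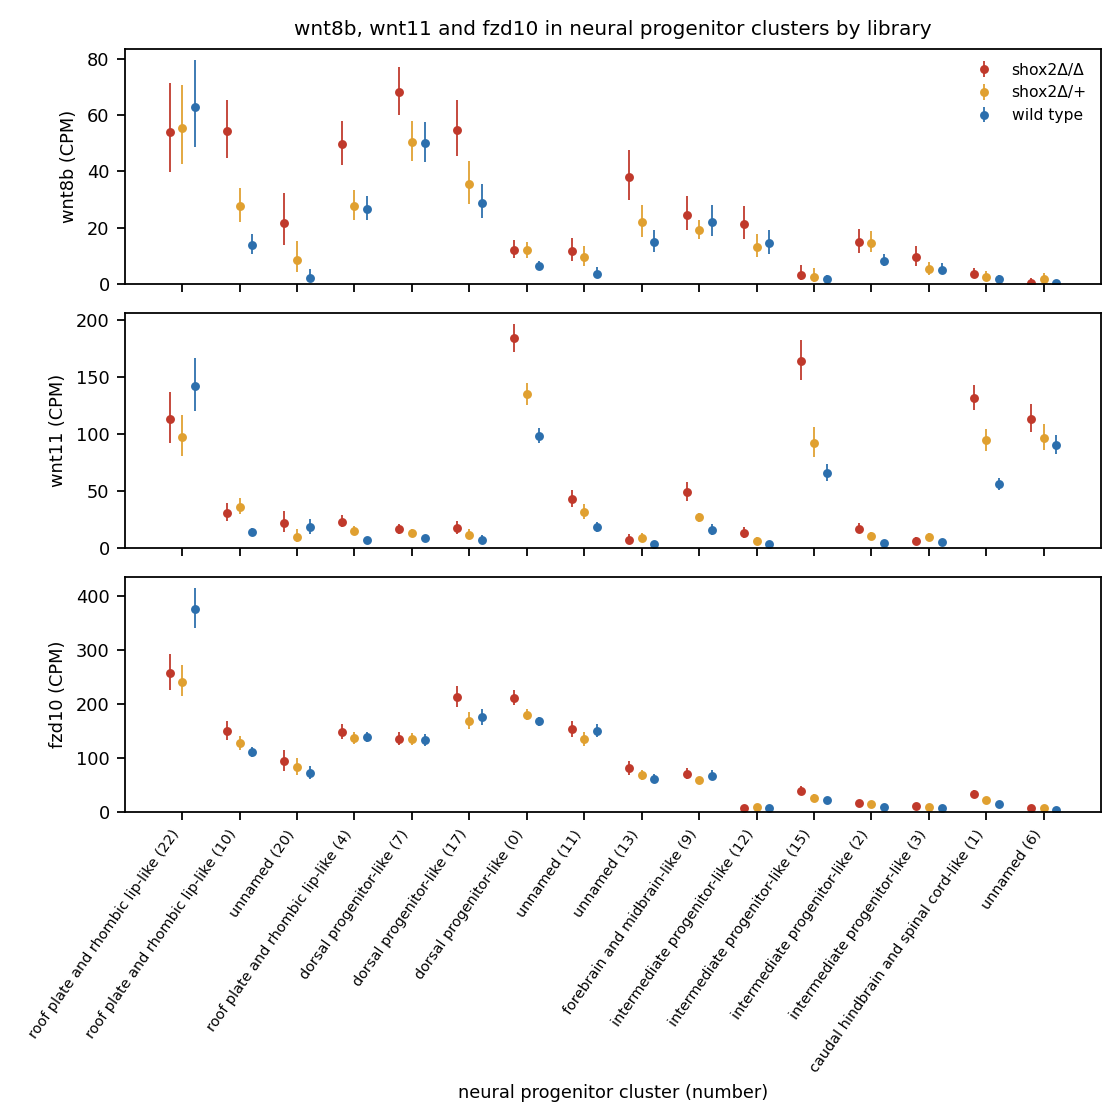
Level of wnt8b, wnt11 and fzd10 (panels, y axes in CPM) in 16 neural progenitor clusters (x axis) by library, each point 1 library with its exact Poisson 95% interval. In the rhombic lip cluster (10) wnt8b had 54.3 CPM in shox2Δ/Δ, 27.7 CPM in shox2Δ/+ and 13.9 CPM in wild-type cells, while in the roof plate cluster (22) the 3 points lay between 54.0 and 62.8 CPM.

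At the dorsal edge the rhombic lip and roof plate clusters differed, as the plot of wnt8b, wnt11 and fzd10 by cluster shows. These 2 clusters were chosen after their values were seen. The largest cluster of the roof plate and rhombic lip-like class had 691 cells and was led by zic4 and efnb2a. Its wnt8b levels were 49.7, 27.6 and 26.7 CPM in shox2Δ/Δ, shox2Δ/+ and wild-type cells. In the rhombic lip cluster wnt8b had 113, 85 and 64 UMIs in 98 shox2Δ/Δ, 165 shox2Δ/+ and 237 wild-type cells. This was a ratio of 3.91-fold (2.85 to 5.4) for shox2Δ/Δ over wild type and 1.96-fold (1.47 to 2.63) for shox2Δ/Δ over shox2Δ/+, in a cluster where 16.8% and 4.05% of the genes were past 2-fold. In the roof plate cluster, with 43, 59 and 57 cells, the ratio of wnt8b over wild type was 0.861-fold (0.581 to 1.27), where 12.5% of the genes were past 2-fold, and over shox2Δ/+ it was 0.974-fold (0.657 to 1.44). fzd10 had 150.0, 127.3 and 110.2 CPM in the rhombic lip cluster. In the roof plate cluster its ratio was 0.684-fold (0.579 to 0.807) for shox2Δ/Δ over wild type and 1.07-fold (0.893 to 1.28) for shox2Δ/Δ over shox2Δ/+, so only the wild-type library differed there by more than counting error. The clusters also differed in markers of position along the neural tube. The rhombic lip cluster had 4 rhombomere 5 and 6 markers raised, and the roof plate cluster 3 forebrain and midbrain markers. The difference between the clusters was not tested. wnt3a did not follow wnt8b there, since its levels in the rhombic lip cluster lay between 10.1 and 11.1 CPM.

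For wnt11 the order of the libraries was seen in the caudal clusters. The caudal dorsal cluster had 183.8 CPM in shox2Δ/Δ, 134.7 CPM in shox2Δ/+ and 98.2 CPM in wild-type cells, and the caudal intermediate cluster 163.9, 92.2 and 65.6 CPM. The roof plate cluster did not follow it, with 112.5, 97.2 and 141.5 CPM, the highest wnt11 level of a neural cluster in the wild-type library. The order also depended on how the cells were chosen. In 165 cells chosen by at least 3 caudal markers, with no clustering, wnt11 had 161.3, 92.2 and 114.4 CPM. Cells so chosen by dorsal markers (44.8, 36.8 and 11.9 CPM) and by intermediate markers (40.9, 39.4 and 30.4 CPM) kept the order. Those chosen by roof plate and rhombic lip markers (75.5, 59.8 and 66.5 CPM) and by ventral markers (50.85, 57.45 and 57.0 CPM) did not. With the clusters of the intermediate progenitor-like class summed, wnt11 had 41.4, 21.8 and 18.7 CPM. The log2 ratio was 1.15 (0.95 to 1.35) over wild type and 0.92 (0.71 to 1.14) over shox2Δ/+. In this class 16.2% and 2.77% of the genes were past 2-fold. Of its 1150 wnt11 UMIs, 869 came from the caudal intermediate cluster, so these ratios rest mainly on that cluster. Intermediate clusters 2 and 12 kept the order at lower levels, and cluster 3 did not (6.03, 9.79 and 5.18 CPM).

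Marker genes of the classes also differed between the libraries, though not in the same order for every list. The summed level of the 12 roof plate and rhombic lip markers in roof plate and rhombic lip-like cells was 1888 CPM in shox2Δ/Δ, 1826 CPM in shox2Δ/+ and 1396 CPM in wild-type cells, with 11, 11 and 10 of them detected. The class made up 10.5%, 11.3% and 12.2% of the neural cells. The 10 dorsal progenitor markers summed to 735.8, 582.6 and 489.0 CPM in dorsal progenitor-like cells, and the 7 caudal markers to 447.2, 356.7 and 360.9 CPM in caudal hindbrain and spinal cord-like cells. In their own classes the 7 midbrain-hindbrain boundary markers had 1368, 1086 and 1010 CPM, and the 6 intermediate progenitor markers 771.8, 687.7 and 705.8 CPM. The 11 floor plate and notochord markers were highest in the wild-type library, with 7376, 7330 and 8691 CPM in their class. The part of these differences in the results for wnt8b and wnt11 was not tested.

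The rest of the pathway was read from a list of other Wnt genes by role, of which 95 were found and 74 had at least 20 UMIs in shox2Δ/Δ and wild-type neural progenitor-like cells. Of these 74, 8 were past 2-fold higher and 3 past 2-fold lower in shox2Δ/Δ cells, against 12.1% and 7.55% of all genes. Their median log2 ratio was 0.15, against 0.10 for all genes with at least 20 UMIs in the 2 libraries together. Against shox2Δ/+ cells 1 of 74 was past 2-fold higher and none lower, where 1.38% and 1.45% of all genes were, with a median of 0.04 in both. Between shox2Δ/+ and wild type 11 of 75 were higher and 3 lower, where 11.2% and 6.84% of all genes were.

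Of 12 secreted inhibitors tested, 4 were past 2-fold higher and none lower in shox2Δ/Δ over wild type, where 12.1% and 7.55% of all genes were. For shox2Δ/+ over wild type 4 were higher and 1 lower, where 11.2% and 6.84% of all genes were. dkk1b, which encodes a blocker of the Wnt co-receptor Lrp6, had 4.61 CPM in shox2Δ/Δ, 2.16 CPM in shox2Δ/+ and 0.222 CPM in wild-type cells, a log2 ratio of 4.38 (3.73 to 5.09) over wild type and 1.09 (0.80 to 1.39) over shox2Δ/+. sfrp2 had 5.02, 3.46 and 1.04 CPM, frzb 1.64, 1.45 and 0.465 CPM, and dkk3b 10.6, 11.5 and 4.67 CPM. Of these, dkk1b and sfrp2 had a ratio over shox2Δ/+ with an interval above 1-fold.

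The ligand genes went both ways. wnt7ab, with 0.651, 0.421 and 0.201 CPM in shox2Δ/Δ, shox2Δ/+ and wild-type cells, was past 2-fold higher over wild type, and so was wnt7ba, which had under 50 UMIs and is named after its values were seen. wnt3, with 0.685, 0.927 and 1.45 CPM, and wnt9a, with 0.154, 0.197 and 0.550 CPM, were past 2-fold lower.

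Of the receptor genes ror1, a co-receptor of the polarity branch, was past 2-fold higher over wild type at 1.70, 1.60 and 0.772 CPM, while fzd7a, the most abundant one, had 152.4, 147.4 and 154.1 CPM. Among agonists and secretion factors rspo1, a Wnt-enhancing ligand, had 7.02 CPM in shox2Δ/Δ, 6.52 CPM in shox2Δ/+ and 1.06 CPM in wild-type cells. gpc3, a glypican, had 0.274, 0.520 and 0.560 CPM, and wls, which carries Wnt proteins to the cell surface, 166.7, 164.2 and 94.8 CPM.

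No transducer, nuclear factor or feedback target was past 2-fold. For shox2Δ/Δ over wild type 10, 11 and 9 of them were tested, where 19.7% of all genes were past 2-fold either way. ctnnb1, the beta-catenin gene, had 522.1, 523.8 and 398.7 CPM in shox2Δ/Δ, shox2Δ/+ and wild-type cells, bcl9 66.1, 62.5 and 65.8 CPM, and ccnd1 697.7, 636.2 and 572.8 CPM. For axin2, a target and feedback inhibitor of the canonical pathway that was named after its values were seen, the levels were 108.0, 87.3 and 62.8 CPM, with a log2 ratio of 0.78 (0.73 to 0.83) over wild type and 0.31 (0.26 to 0.36) over shox2Δ/+.

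**Figure D5:**
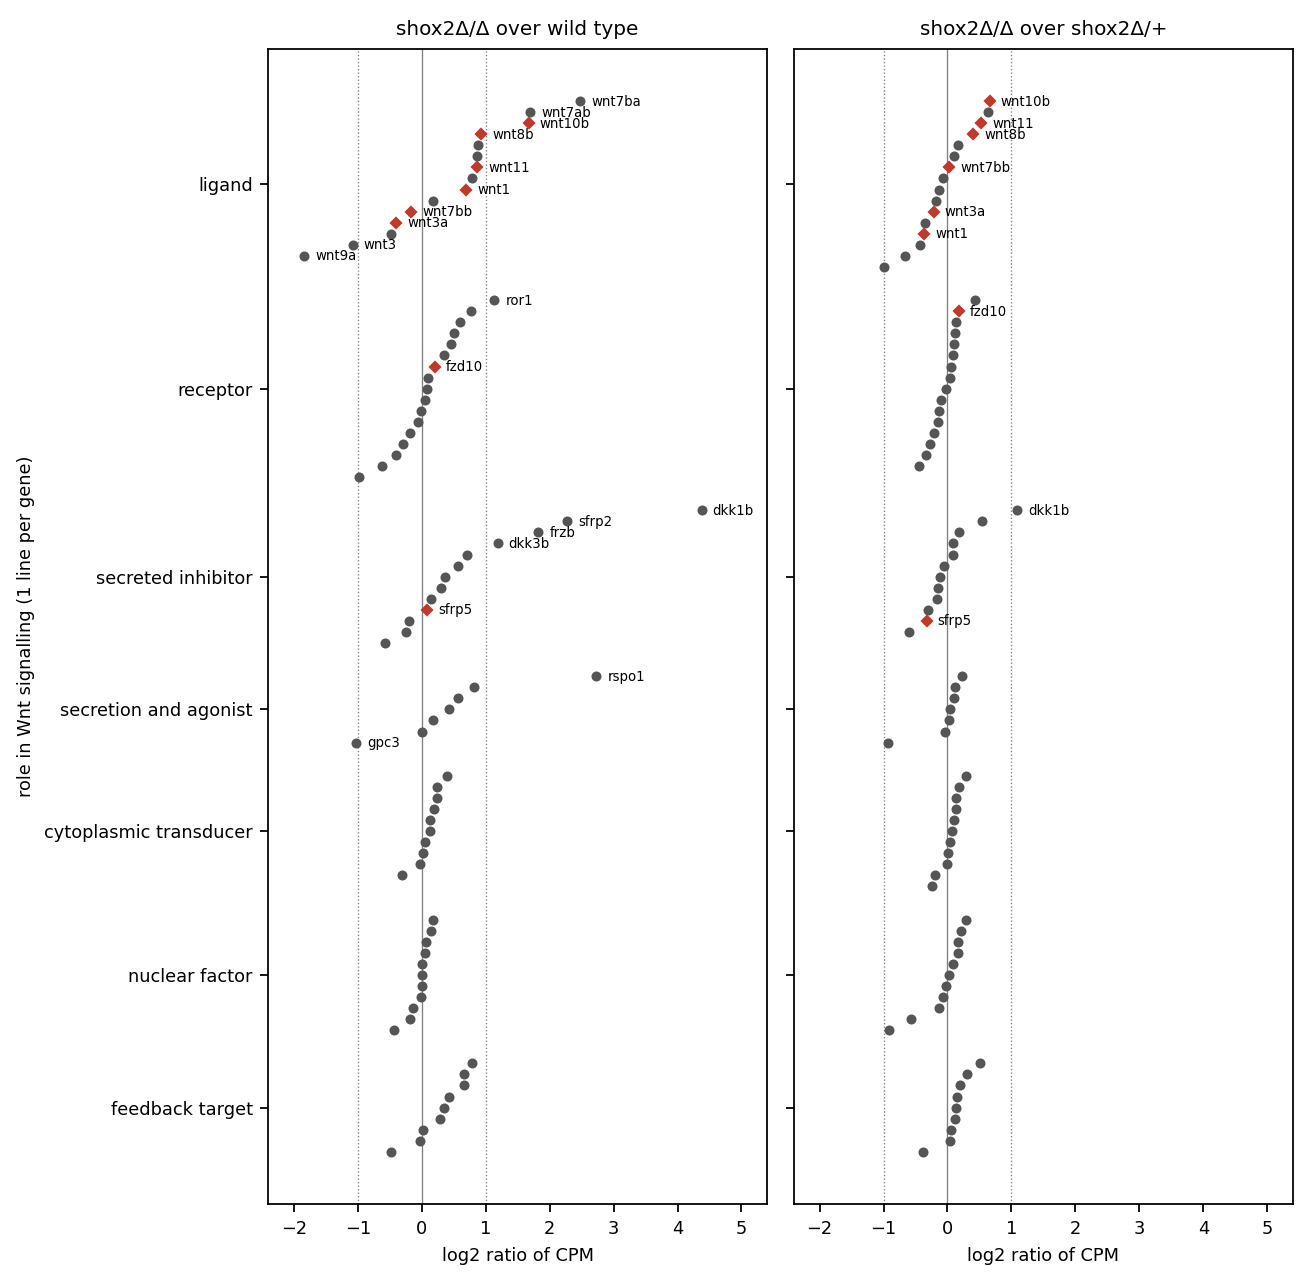
log2 ratio of CPM (x axis) of Wnt pathway genes grouped by role (y axis, 1 line per gene) in neural progenitor-like cells, for shox2Δ/Δ over wild type (left) and shox2Δ/Δ over shox2Δ/+ (right). Red diamonds are the 8 genes described here, grey points the other genes with at least 20 UMIs in the 2 libraries compared, and dotted lines mark 2-fold. dkk1b (4.38) stands farthest from 0 on the left, and on the right it is the only point past a dotted line.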

How the data were processed

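Tissue around the otic vesicle of pooled zebrafish embryos was measured in 3 libraries, 1 per genotype. The authors ran Cell Ranger 4.0.0 on GRCz11, extended by DsRed and EGFP, and deposited raw UMI counts for the barcodes that it called as cells. Libraries were made with a 3′ kit, and each library's depth is given above as its median UMIs per cell.

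Cells with at least 500 and under 6500 genes and under 5% mitochondrial UMIs were kept, as in the study's methods. They were clustered with scanpy 1.11.5, leidenalg 0.10.2, igraph 0.11.9 and scikit-learn 1.9.0, under python 3.11.15 with pandas 2.3.3, scipy 1.17.1 and numpy 2.4.6. The 2532 variable genes left out every Wnt pathway gene, shox2 and the reporters, and each gene was centred within its library. With 40 components, 10 neighbors and resolution 1 this gave 40 clusters, and the neural progenitor-like cells were clustered again into 23. A cluster was named from 27 marker lists when at least 3 markers of a list were raised, by a rule settled after the clusters had been seen. The doublet caller marked 0 to 1 cells per library, so it had not worked and no doublets were removed.

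For each class the UMIs of a library were added up, and CPM took the sum over all genes in those cells as its total. Intervals are exact (Poisson for CPM, conditional binomial for ratios, Clopper-Pearson for shares) at 95%. Ratios with at least 20 UMIs in the 2 libraries were read as past the limit at 2-fold, and 0 UMIs were replaced by a floor of 3 UMIs per library. Summed counts at the totals of shox2Δ/Δ and wild-type neural cells were simulated from the wild-type sums with counting error only (14697 genes). There, 100% of the 4-fold changes, 58% of the 2-fold changes and 1.21% of the unchanged genes were past the limit. The simulated counts had no variation between cells or libraries, so 1.21% is not a rate of false calls between the real libraries.

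Named are the 8 genes, in each role of the wider list the gene with the most UMIs and those past 2-fold over wild type with at least 50 UMIs, and for each of the 8 the 3 genes most like it among genes with at least 200 UMIs. The genes and lists were chosen with earlier results of these data known. Alternatives covered scaling, means over cells, cell filters, doublet scores, centring, resolution, limits, thinning and marker-chosen cells. Leaving out shared barcodes, and levels with genes centred over the libraries together, were added after the data were seen. Figures were drawn with matplotlib 3.10.9.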

Additional observations from a re-analysis of the deposited data

How the results depend on the processing

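In neural progenitor-like cells the count of the 8 genes past 2-fold, 1 for shox2Δ/Δ over wild type, was 2 by the mean over cells of each cell's CPM and 4 at a limit of 1.5-fold. For shox2Δ/Δ over shox2Δ/+ it was 0, and 1 at 1.5-fold. For shox2Δ/+ over wild type it was 2, and 1 under median-of-ratios scaling, the mean over cells, centring of genes over the libraries together and resolution 0.5, and 0 at resolution 2. Over all cells the count for shox2Δ/Δ over wild type was 1, and 0 by the mean over cells and 3 at 1.5-fold. It was 0 and at 1.5-fold 1 for shox2Δ/Δ over shox2Δ/+, and 0 and at 1.5-fold 2 for shox2Δ/+ over wild type. On the wider list, 1 gene past 2-fold for shox2Δ/Δ over shox2Δ/+ became 2 under median-of-ratios scaling, 4 with genes centred together and 2 without shared barcodes, and 14 for shox2Δ/+ over wild type became 9 with a minimum of 50 UMIs. The count of 11 for shox2Δ/Δ over wild type stayed within 1.5 times.

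The log2 ratio of sfrp5 for shox2Δ/Δ over wild type changed sign to -0.0253 under median-of-ratios scaling in neural cells and to -0.0082 by the mean over cells in all cells. By the mean over cells in all cells wnt10b for shox2Δ/+ over wild type was -0.0661. With genes centred together, in intermediate progenitor-like cells fzd10 was -0.42 for shox2Δ/Δ over wild type and -0.0114 over shox2Δ/+, and wnt8b -0.26 for shox2Δ/+ over wild type. The cause was not tested. These and the other alternatives for named values are 6 with a changed sign, 141 that moved and 678 that did not.

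No paired analysis was possible because each genotype had 1 library, and no library was left out of a group. Depth limits wnt1 and wnt10b most, with 131 and 148 UMIs in all passing cells.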

Other observations

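Outside the neural tube the ligand gene wnt11 and the inhibitor gene sfrp5 were both found in heart and lateral plate-like cells (74.1 CPM of wnt11 and 207.9 CPM of sfrp5), while endothelium-like cells had 118.8 CPM of wnt11 and 3.8 CPM of sfrp5. In heart and lateral plate-like cells sfrp5 had 204.6 CPM in shox2Δ/Δ, 197.2 CPM in shox2Δ/+ and 219.4 CPM in wild-type cells, a spread of libraries narrower than in intermediate progenitor-like cells (143.1, 170.3 and 105.4 CPM). In cells chosen by heart markers alone, with no clustering, wnt11 had 113.5 CPM beside 295.4 CPM of sfrp5, and in cells chosen by endothelium markers wnt11 had 122.2 CPM beside 3.87 CPM of sfrp5. In endothelium-like cells wnt11 was lowest in the shox2Δ/Δ library (79.9 CPM, against 121.3 CPM in shox2Δ/+ and 139.7 CPM in wild type), the opposite order to that in neural progenitor-like cells, in cells whose median depth was 8591, 17629 and 17890 UMIs, and with a log2 ratio of shox2Δ/Δ over wild type of -0.81, or -1.03 without shared barcodes, while in pharyngeal endoderm-like cells it was highest there (148.6, 125.1 and 87.6 CPM).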
